A study of Homo sapiens with 12 samples.

Results

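The replication-dependent histone genes of MDA-MB-231 cells were described class by class. They were taken from the table by symbol, either an older symbol that starts with HIST1H to HIST4H or a newer one of the form H1-1 to H1-6, H2AC, H2BC, H3C or H4C with a number. The rule itself reads names and no measured value. It gave 66 of the 60664 genes in the table, of which 6 encode linker histone H1, 16 encode H2A, 17 encode H2B, 13 encode H3 and 14 encode H4. By identifier, 53 of them lie on chromosome 6 and 11 on chromosome 1 of GRCh38 (GENCODE release 29), and H3C2 and H3C3 are not in that release.

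Core histones H2A, H2B, H3 and H4 form the octamer around which DNA is wrapped, and H1 binds the linker DNA between octamers. Most of this protein is made during S phase from clustered genes with many near-identical copies per class. Their mRNAs typically lack introns and end in a conserved stem-loop instead of a poly-A tail, the stem-loop is bound by SLBP, and some of the genes can also give longer polyadenylated transcripts.

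MDA-MB-231 is an established line of triple-negative human breast cancer cells. The libraries fall into 3 groups of 4, which were wildtype (WT) cells in normoxia, WT cells kept in hypoxia for 24 hr, and CCAR2 knockout (KO) cells in normoxia. CCAR2 encodes DBC1, and the study compared hypoxia and CCAR2 loss each with WT normoxia, to follow the molecular changes in both. The KO cells were made with a lentiviral CRISPR vector, whether they are 1 clone or a pool is not stated, and the labels name no other allele or agent in any group. The methods speak of biological replicates, in numbers that differ from the 4 libraries per group, and nothing in the labels says whether the libraries of a group came from separate cultures, so that p-values measure the spread between these libraries, which may be technical. The methods say that poly-A RNA was used. The labels name a library kit with total RNA as input, which does not conflict with a later poly-A selection. Such selection would leave out mRNAs that end in the stem-loop.

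The deposited values are estimated counts per gene, and levels are given as CPM, which are the counts edgeR scales to a common library size after TMM normalization. Library sums were between 153904088 and 213743693 in WT normoxia, between 76384973 and 195621872 in WT hypoxia and between 68599412 and 152328450 in KO cells, and are sums of estimates, not numbers of reads. CCAR2 was between 148 and 152 CPM in WT normoxia, between 141 and 153 CPM in WT hypoxia and between 54.6 and 60.7 CPM in KO cells, so that the KO libraries did not overlap with the others (two-sided exact permutation p = 0.0286 against WT normoxia, the smallest that 4 against 4 allows). As markers of the line, VIM was at 4381 CPM or more in every library, and ESR1 and PGR, which encode the hormone receptors that the line lacks, were at 0.469 CPM or less, whereas ERBB2, which encodes the receptor HER2, was between 88.7 and 107 CPM over the 12 libraries. WT hypoxia replicate 4 stood apart in RNAs that have no poly-A tail. The summed level of 20 such RNAs was 846 CPM there against 86.8 to 214 CPM in the other hypoxia libraries, 75.2 to 186 CPM in WT normoxia and 73.1 to 197 CPM in KO cells. RN7SL1 and RN7SL2, the RNA of the signal recognition particle, made up most of it, and without both the sum was between 1.18 and 2.28 CPM over all 12 libraries. RN7SK, a small nuclear RNA without a poly-A tail that restrains transcription elongation, was 0.154, 0.342, 0.336 and 0.145 CPM in WT normoxia and 0.281, 0.603, 0.780 and 0.765 CPM in hypoxia. The groups overlapped, and it was called higher in hypoxia, by 1.35 on the log2 scale (SE 0.39, adjusted p = 0.028), as the 1 gene called of the 6 on this list that could be tested. The part of these RNAs in the histone results was not tested, and without hypoxia replicate 4 the members called lower in hypoxia were 11 in place of 10.

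The stem-loop was looked for in the annotated transcripts, since it marks the mRNA end that these genes share. It was found in 28 of the 64 genes with an annotated model. The 6 versions found are given 5′ to 3′ as DNA letters from GENCODE release 29, with both arms of the stem in capitals and the loop of 4 bases in lower case.
H2A, H2B and H3, 15 genes, among them H2AC6, H2AC18, H2AC19, H2BC21 and H3C10: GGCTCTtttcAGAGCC
H2B and H3, 4 genes, H2BC4, H2BC5, H2BC7 and H3C8: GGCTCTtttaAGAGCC
H3C6: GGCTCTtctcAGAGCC
H2AC11: GGCTCTtttcAGGGCC
H4C2, H4C5, H4C8 and H4C11: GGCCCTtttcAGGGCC
H4C9, H4C14 and H4C15: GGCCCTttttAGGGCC
All 7 H4 genes with a stem-loop had a stem that no gene of another class had, and the loop differed among them. In 20 of the 28 genes the model ran on for at least 100 bases past the stem-loop, for example by 1128 bases in H2AC6, 1729 bases in H2BC21 and 212 bases in H4C9. In the other 8 it ended within 100 bases, as in H2AC18 and H2AC19, with 35 bases each. Of the 36 models without a stem-loop, 32 had a length that is a multiple of 3, as coding sequences alone have. Such a length does not show that a model is coding sequence alone, since H4C3 has 435 bases beside 312 in H4C1 and H4C12. Where a model does hold coding sequence alone, the missing stem-loop says nothing about the mRNA. H1-2 and H2BC12, the most abundant genes of their classes, are among these 36.

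Promoters are shown for 3 genes on which the results turn. H2BC12 was the most abundant of all and was lower in both conditions, H2AC6 shares its promoter region with H2BC4 on the other strand, and H2BC21 was the 1 gene called higher in KO cells. Each runs 5′ to 3′ from 250 bases before to 50 bases after the start in RefSeq (GRCh38.p14), with the motif TATAAA, the motif CCAAT and the octamer ATTTGCAT in capitals on either strand, and with overlapping matches joined.
H2BC12, chr6:27146809-27147108, minus strand: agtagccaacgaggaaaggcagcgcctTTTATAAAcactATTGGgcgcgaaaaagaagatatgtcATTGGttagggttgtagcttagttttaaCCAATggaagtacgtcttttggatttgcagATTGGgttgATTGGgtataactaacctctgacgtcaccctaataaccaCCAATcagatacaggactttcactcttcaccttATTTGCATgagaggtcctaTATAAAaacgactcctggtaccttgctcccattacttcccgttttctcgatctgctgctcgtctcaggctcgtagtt
H2AC6, chr6:26123922-26124221, plus strand: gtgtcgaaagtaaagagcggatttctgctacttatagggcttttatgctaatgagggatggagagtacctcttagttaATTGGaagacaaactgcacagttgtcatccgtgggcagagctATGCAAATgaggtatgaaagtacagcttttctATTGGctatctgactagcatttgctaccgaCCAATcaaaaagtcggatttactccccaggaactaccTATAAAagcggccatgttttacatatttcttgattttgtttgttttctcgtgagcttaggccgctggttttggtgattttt
H2BC21, chr1:149886633-149886932, minus strand: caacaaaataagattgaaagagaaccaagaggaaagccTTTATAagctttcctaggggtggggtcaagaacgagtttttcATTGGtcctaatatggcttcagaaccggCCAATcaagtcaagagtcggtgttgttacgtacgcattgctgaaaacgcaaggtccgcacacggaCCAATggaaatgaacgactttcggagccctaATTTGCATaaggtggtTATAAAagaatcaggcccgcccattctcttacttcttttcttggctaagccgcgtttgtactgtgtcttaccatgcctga
All 3 hold each motif at least once, and H2BC12 and H2BC21, which moved in opposite directions in KO cells, both hold the octamer just before a TATAAA. RefSeq gave a promoter for 61 of the 66 genes. TATAAA was in 67.2% of them against 12% of all 27305 promoters, CCAAT in 85.3% against 35.7%, and the octamer in 42.6% against 1.80%. By class, the octamer was in 14 of 17 H2B, 11 of 15 H2A, 1 of 11 H3 and none of 6 H1 or 12 H4 promoters. The windows of H2A and H2B partners on opposite strands overlap, and motifs were counted on either strand. The same octamer is thus counted in both classes for H2AC6 with H2BC4 and H2AC20 with H2BC21, among others. The H2A and H2B counts are therefore not independent. The 1 H3 promoter with it, that of H3C4 at its first listed start, is the same window as that of H2AC7. This octamer is counted for both and again for H2BC7 on the other strand. CCAAT was in every promoter found for the other classes and in 3 of 12 H4 promoters. A match is a match of letters in this window only.

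A small number of genes carried most of the signal. Of the 66 genes, 14 were at 0 in all 12 libraries, namely 1 H1, 3 H2A, 1 H2B, 4 H3 and 5 H4 genes, and 52 had a count in at least 1 library. H2BC12, H1-2, H2AC6, H4C9, H2AC18 and H2AC19 together took 80.2% of the summed CPM of all 66, a share of counts that is not adjusted for length, and the 12 leading genes took 91.0%. Per kb of annotated exon, H2BC12 led with 211 CPM per kb on average over the 12 libraries and H1-2 followed with 78.3 CPM per kb. H2AC18 and H2AC19 were at 23.5 and 22.6 CPM per kb, H2AC6 at 15.2 and H4C9 at 13.4. The leading H3 gene with a length, H3C10, was at 1.53 CPM per kb. H3C2 and H3C3, at 0.809 and 0.976 CPM on average, have no length there and were not ranked. The values per kb depend on the length used, since the models of H2BC12 and H1-2 hold coding sequence alone and the annotation behind the deposited values is not named.

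**Figure D1:**
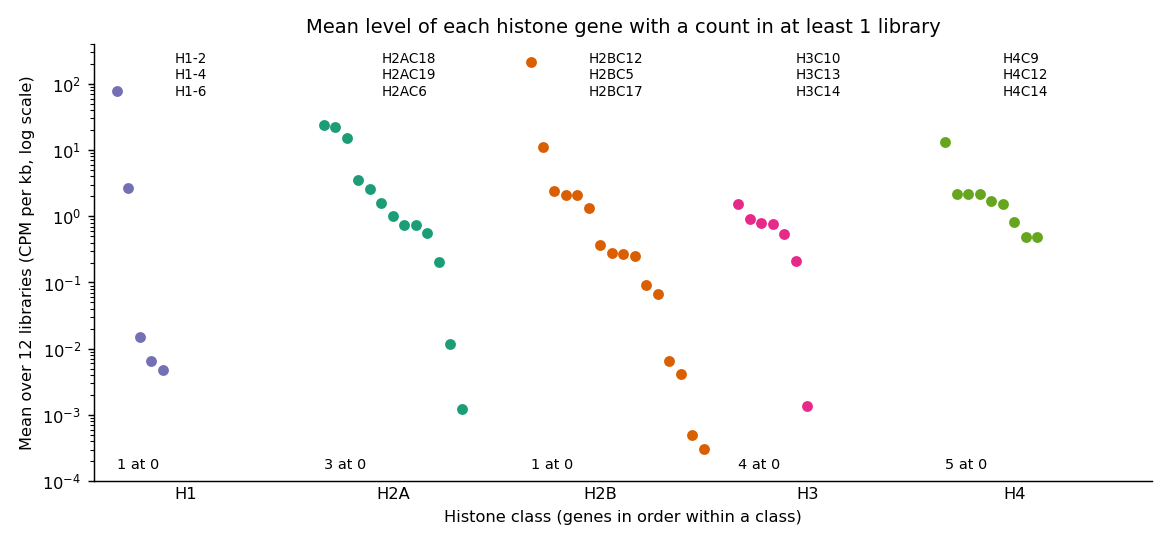
Mean over the 12 libraries of the CPM per kb of annotated exon (log scale) for each gene with a count in at least 1 library, in order within each class, with the number of genes at 0 in every library written below. The 3 leading genes of each class are named at the top, H3C2 and H3C3 are left out for want of a length, and H2BC12 stands highest at 211 CPM per kb.

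Some of these genes could not be told apart. H2AC18 and H2AC19 share 100% and 97.1% of their windows of 50 bases, and H3C14 and H3C15, and H4C14 and H4C15, share 100% within each pair, so that reads of one copy could be counted for the other. The same holds in large part for H2AC13 and H2AC14 and for H4C11 and H4C12. H3C14 and H3C15 also overlap H4C14 and H4C15 on the opposite strand, H2AC17 overlaps H3C12 on the same strand, and whether strand was used in counting is not given in the sources used here. Values of these genes are therefore uncertain, and each such pair is best read as 1 measurement.

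Every class was lower in hypoxia and lower in KO cells when the CPM of its genes were summed. The summed level of all 66 genes was 311, 352, 333 and 315 CPM in WT normoxia replicates 1 to 4, 220, 242, 213 and 225 CPM in WT hypoxia and 200, 183, 191 and 193 CPM in KO cells. Group means with SD (n = 4 libraries each) were 328 ± 18.6, 225 ± 12.1 and 192 ± 6.96 CPM, and every hypoxia and every KO library lay below every WT normoxia library, for the total and for each of the 5 classes. No p is given for these sums, and fewer cells in S phase and less histone mRNA per cell cannot be told apart in bulk RNA. Poly-A selection would leave out mRNAs that end in the stem-loop, so the sums may not follow total histone mRNA. The part of this selection in the sums was not tested.

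H2B was the class with the largest sum, at 132 ± 5.41 CPM in WT normoxia, 90 ± 5.71 CPM in WT hypoxia and 80.7 ± 5.19 CPM in KO cells. H2A was at 76.3 ± 5.01, 49.6 ± 1.68 and 44.4 ± 2.14 CPM in the same order, and H1 at 70.4 ± 7.08, 49.7 ± 4.04 and 36.7 ± 1.78 CPM. H4 was at 40.5 ± 2.09, 29.3 ± 1.85 and 24.2 ± 1.28 CPM, and H3 at 8.61 ± 0.428, 6.67 ± 0.732 and 5.71 ± 0.578 CPM. On the log2 scale the ratio of hypoxia to WT normoxia lay between -0.62 for H2A and -0.37 for H3. For KO cells the ratio to WT normoxia lay between -0.94 for H1 and -0.59 for H3.

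In most classes 1 gene set much of these sums. H1-2 was 96.2% of the H1 sum over the 12 libraries, H2BC12 79.7% of the H2B sum, H4C9 55.5% of the H4 sum and H2AC6 44.6% of the H2A sum, whereas H3C10 was 27.1% of the H3 sum. Without H4C9 the H4 ratio of hypoxia to WT normoxia was -0.13 on the log2 scale instead of -0.47. Without H2BC12 the H2B ratio of KO cells to WT normoxia was -0.18 instead of -0.71, and that of KO cells to hypoxia was 0.15 instead of -0.16. The lower H4 sum in hypoxia and the lower H2B sum in KO cells were thus largely those of their most abundant genes.

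**Figure D2:**
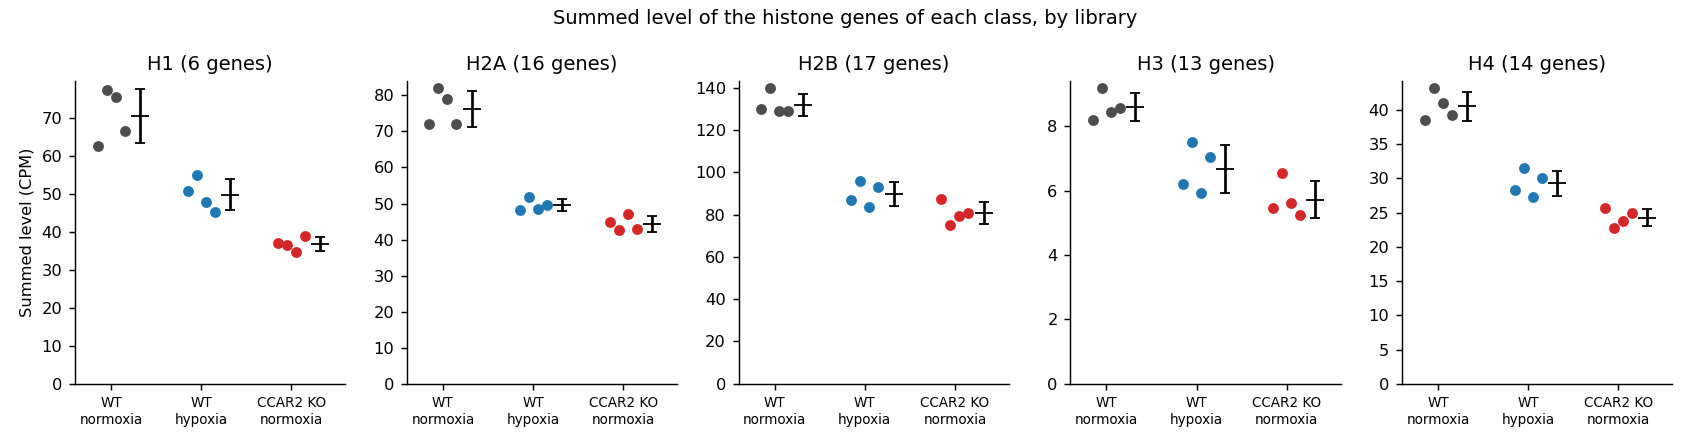
Summed CPM of the genes of each class in each library (points, 4 per group, in the order of replicates 1 to 4), with the group mean and SD beside them (n = 4). In all 5 panels the hypoxia and KO libraries lie below the 4 WT normoxia libraries, and the axes start at 0.

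Of the 66 genes, 41 had counts high enough to be tested against WT normoxia in either comparison. The other 25 were the 14 genes at 0 and 11 genes that never had a count above 17. Counts of genes here and below take both copies of each pair that could not be told apart. Calls took an adjusted p under 0.05 (quasi-likelihood F test of edgeR, with the Benjamini-Hochberg method over all genes tested) and a log2 fold change of 0.5 or more in size, as the study did. This threshold lies close to many of the changes, so a gene that was not called is not thereby shown to be unchanged.

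In hypoxia, histone genes of every class were called lower and none was called higher. Of the 41 genes, 10 were called lower, which is 24.4%, beside 1.43% of all 21776 genes tested, and 0 were called higher, beside 5.83% of all genes tested. The count of 0 was also that of DESeq2 and limma-voom, and no gene was higher by an unadjusted p under 0.05, whereas 18 of 41 were lower, beside 17.1% of all genes higher and 18.2% lower by that measure. The median log2 fold change of the 41 genes was -0.47, with 34 below 0, beside a median of 0.01 over all genes tested. In 16 of the 41 genes all 4 hypoxia libraries lay below all 4 WT normoxia libraries, which is 39.0%, beside 16% of all genes. By class, the genes called lower were 1 of 2 H1, 2 of 11 H2A, 4 of 11 H2B, 1 of 8 H3 and 2 of 9 H4 genes.

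In the H1 class, H1-4 (ENSG00000168298, chr6:26156354-26157107), a linker histone of somatic cells, was 2.47, 3.12, 2.43 and 2.45 CPM in WT normoxia and 1.66, 1.77, 1.61 and 1.84 CPM in hypoxia. It was lower in all 4 hypoxia libraries, by a log2 fold change (with its standard error, SE) of -0.57 (SE 0.13, adjusted p = 0.00829), and this call was lost without WT normoxia replicate 2, the highest library. H1-2 (ENSG00000187837, chr6:26055787-26056428), the leading linker histone here, was 60, 74.2, 72.9 and 64.0 CPM in WT normoxia and 49.0, 53.0, 46.2 and 43.5 CPM in hypoxia. Its libraries did not overlap either, and its log2 fold change of -0.47 (SE 0.09, adjusted p = 0.00283) fell just short of the threshold on size. Without WT normoxia replicate 1 or hypoxia replicate 2 it was called lower. H1-6, the testis H1 and the third of this class by level per kb, had too few counts to be tested.

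Among H2A genes, H2AC6 (ENSG00000180573, chr6:26124145-26139116) fell most evenly. It was 34.0, 38.1, 33.3 and 32 CPM in WT normoxia and 19.8, 21.3, 19.8 and 19.8 CPM in hypoxia. Its log2 fold change was -0.74 (SE 0.06, adjusted p = 3.99e-05). H2AC14 fell by 1.01 on the log2 scale (SE 0.21), from 0.843 ± 0.103 to 0.405 ± 0.0790 CPM (SD, n = 4), but shares 83.7% of its windows with H2AC13, which had a log2 fold change of -0.48 and was not called. H2AC18 (ENSG00000203812, chr1:149842188-149842736) and H2AC19 (ENSG00000272196, chr1:149851061-149851624) were at 17.5 ± 1.41 and 17.4 ± 1.45 CPM in WT normoxia and at 12.3 ± 0.493 and 12.2 ± 0.466 CPM in hypoxia. Their log2 fold changes of -0.47 and -0.48 had adjusted p of 0.00131 and 0.00137 and missed the threshold on size, and without WT normoxia replicate 1 or hypoxia replicate 2 both were called lower.

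H2B was the class with the most genes called lower. H2BC12 (ENSG00000197903, chr6:27146418-27146798) was 108, 115, 107 and 106 CPM in WT normoxia and 68.6, 78.0, 66.8 and 73.8 CPM in hypoxia. The groups were far apart, with a log2 fold change of -0.57 (SE 0.06, adjusted p = 1.14e-04). H2BC4 (ENSG00000180596, chr6:26114873-26123926) was 2.43, 2.0, 1.98 and 2.30 CPM in WT normoxia and 0.895, 1.17, 1.23 and 1.29 CPM in hypoxia, a log2 fold change of -0.89 (SE 0.15, adjusted p = 0.00201). H2BC17 and H2BC21 fell by 0.84 and 0.55 on the log2 scale (SEs 0.17 and 0.15). The call of H2BC21 was lost without WT normoxia replicate 1 or 4 and without hypoxia replicate 2, which had the lowest level of the gene. H2BC5 (ENSG00000158373, chr6:26158146-26171349), the second H2B gene by level, overlapped between the groups at 10.9 ± 1.20 CPM in WT normoxia and 9.74 ± 0.591 CPM in hypoxia, with a log2 fold change of -0.13 (SE 0.10, adjusted p = 0.365).

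The H3 and H4 genes were more mixed. H3C10 (ENSG00000278828, chr6:27810064-27811300) was 2.38, 2.17, 2.36 and 2.92 CPM in WT normoxia and 1.28, 1.68, 1.37 and 1.39 CPM in hypoxia, with a log2 fold change of -0.76 (SE 0.15, adjusted p = 0.00436). H3C13 and H3C14 had log2 fold changes of 0.17 (SE 0.34) and -0.03 (SE 0.17), both with overlapping libraries. H3C3 was not called, with a log2 fold change of -0.49 (SE 0.24), and was called lower without hypoxia replicate 2. H4C9 (ENSG00000276180, chr6:27138588-27139881) was 23.0, 27.0, 24.8 and 24.3 CPM in WT normoxia and 14.9, 15.8, 13.9 and 15.2 CPM in hypoxia. It was lower in every hypoxia library, by a log2 fold change of -0.70 (SE 0.07, adjusted p = 8.52e-05). H4C8 had a log2 fold change of -0.50 (SE 0.11, adjusted p = 0.00610), at the threshold itself. Its call was lost in 11 of the settings tried, limma-voom among them. In 4 of them 1 library was left out, WT normoxia replicate 1 or 2 or hypoxia replicate 1 or 3. H4C14 (ENSG00000270882, chr1:149832659-149839767) was 4.37, 4.55, 4.83 and 4.03 CPM in WT normoxia and 4.35, 4.82, 4.04 and 4.70 CPM in hypoxia, so that the groups overlapped throughout. Its log2 fold change was 0.04 (SE 0.10, adjusted p = 0.834), and that of H4C15 was 0.03. The median over the 9 H4 genes tested was -0.01.

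**Figure D3:**
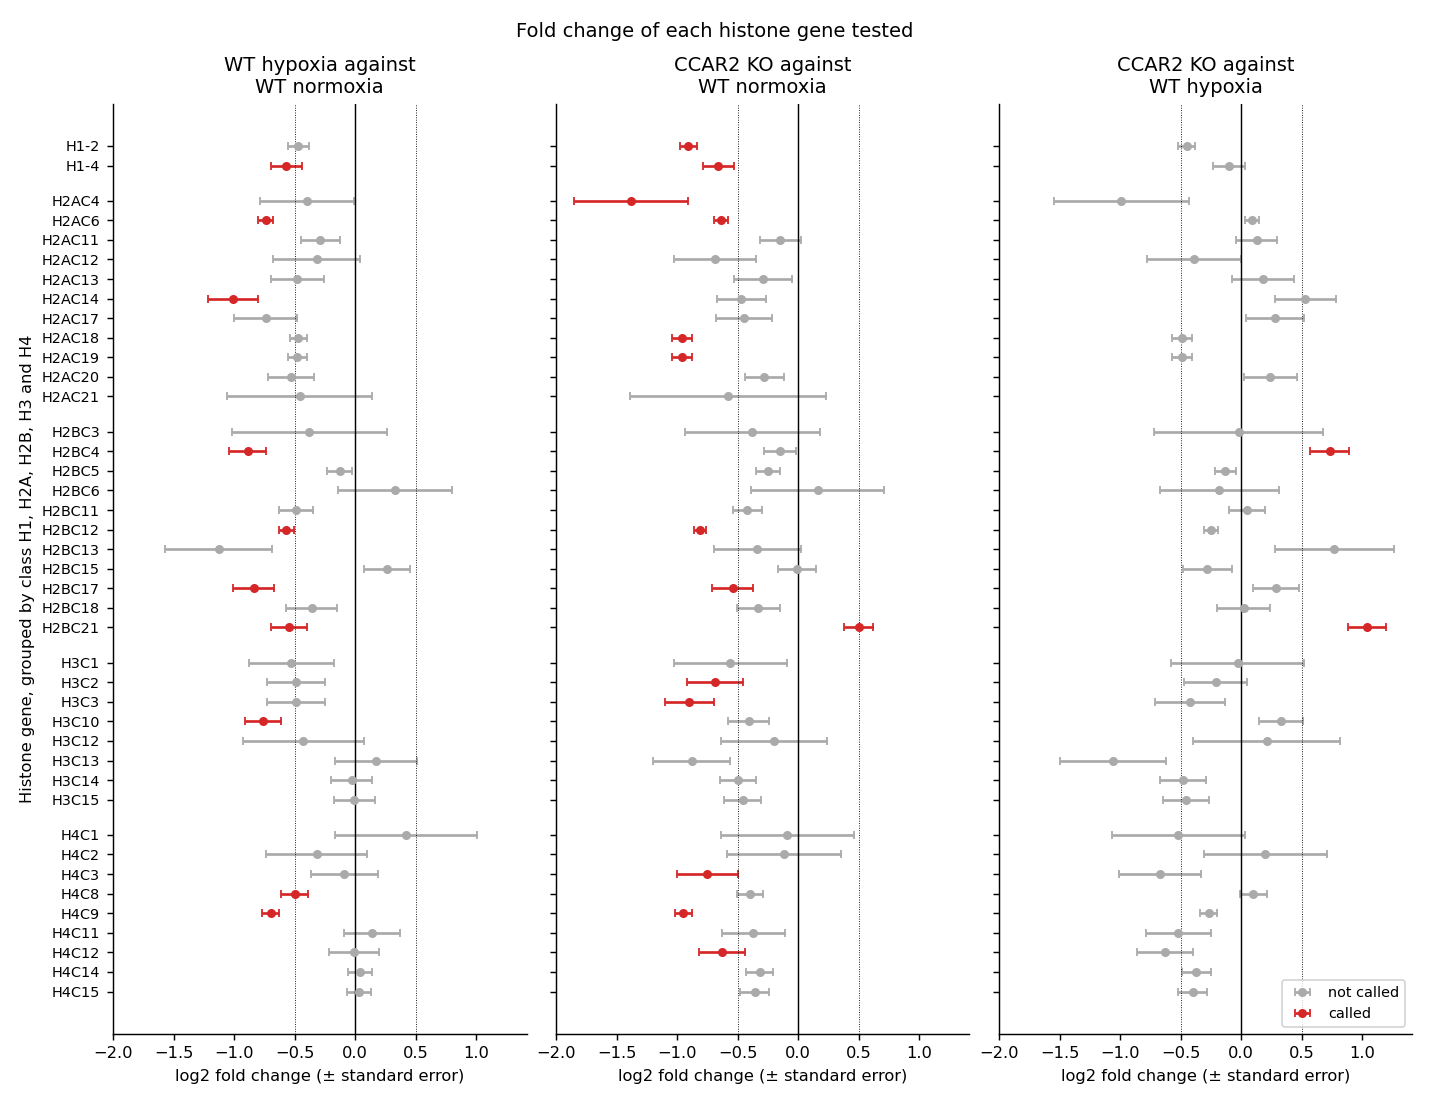
Log2 fold change (horizontal axis, with its SE) of each histone gene tested, in order of class, for hypoxia against WT normoxia, KO against WT normoxia and KO against hypoxia. Genes called are in red, dotted lines stand at -0.5 and 0.5, 10 genes are called lower in the first panel and 13 in the second, and H2BC21 is called lower in the first and higher in the second.

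In KO cells, genes of every class were again called lower, and 1 gene of H2B was called higher. Of the 41 genes tested, 13 were called lower, which is 31.7%, beside 2.94% of all 21410 genes tested, and 1 was called higher, which is 2.44%, beside 6.73% of all genes tested. The median log2 fold change was -0.45, with 39 of 41 below 0, beside a median of 0.01 over all genes tested. All 4 KO libraries lay below all 4 WT normoxia libraries in 20 of the 41 genes, which is 48.8%, beside 18.4% of all genes, and above them in 1 gene, beside 13.3%. By an unadjusted p under 0.05, 23 were lower and 1 higher, beside 19.8% and 19.6% of all genes. The genes called lower were both H1 genes tested, 4 of 11 H2A, 2 of 11 H2B, 2 of 8 H3 and 3 of 9 H4 genes. H2AC18 and H2AC19, which could not be told apart, are both among the H2A genes called. Without KO replicate 1 the number called lower was 8. The same WT normoxia libraries serve as controls in both comparisons, so the values in KO cells and in hypoxia are not independent of each other.

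Both H1 genes were lower in KO cells. H1-2 was 35.2, 35.0, 33.0 and 37.3 CPM in the KO libraries, against 60 CPM or more in WT normoxia. This is a log2 fold change of -0.91 (SE 0.07, adjusted p = 1.47e-06). H1-4 was 1.75, 1.53, 1.59 and 1.57 CPM in KO cells and fell by 0.66 on the log2 scale (SE 0.13, adjusted p = 0.00176).

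Among H2A genes, H2AC18 was 9.06, 8.71, 9.20 and 8.15 CPM and H2AC19 9.05, 8.5, 9.20 and 8.03 CPM in KO cells. Both lay far below their WT normoxia libraries, the lowest of which was 15.5 CPM, with a log2 fold change of -0.96 each (SE 0.08, adjusted p = 1.87e-06 and 2.39e-06). H2AC6 was 21.4, 20.0, 22.7 and 21.7 CPM, a log2 fold change of -0.64 (SE 0.06, adjusted p = 9.15e-06). H2AC4 had the lowest log2 fold change of all members, -1.38 (SE 0.47, adjusted p = 0.0446), on a small number of counts, never more than 84 in a library. Its call was lost when any 1 of WT normoxia replicates 2, 3 and 4 or KO replicates 1, 2 and 4 was left out. H2AC14 had a log2 fold change of -0.47 (SE 0.20) and was not called in KO cells.

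In the H2B class, H2BC12 was 66.1, 56.2, 59.2 and 60.2 CPM in KO cells, a log2 fold change of -0.81 (SE 0.05, adjusted p = 1.43e-07). H2BC17 fell by 0.54 (SE 0.17, adjusted p = 0.0325), a call lost without any 1 of WT normoxia replicates 2 and 3 and KO replicates 1, 2 and 4. That call was also lost with limma-voom and with no filter. H2BC21 (ENSG00000184678, chr1:149884459-149886652) went the other way. It was 3.21, 2.89, 2.66 and 2.88 CPM in WT normoxia, 2.30, 1.46, 2.05 and 1.99 CPM in hypoxia, and 3.99, 3.53, 3.59 and 4.94 CPM in KO cells. The 3 groups did not overlap, with hypoxia lowest and KO highest. Against WT normoxia its log2 fold change in KO cells was 0.50 (SE 0.12, adjusted p = 0.00844), at the threshold, and the call was lost without WT normoxia replicate 2 or 3 or KO replicate 4, the highest library. H2BC4 was 1.89, 1.92, 2.2 and 1.65 CPM in KO cells and overlapped with WT normoxia, with a log2 fold change of -0.15 (SE 0.13, adjusted p = 0.468). H2BC5 was at 8.91 ± 0.899 CPM, a log2 fold change of -0.25 (SE 0.10, adjusted p = 0.0703).

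For H3, the genes called lower in KO cells were H3C2 and H3C3, with log2 fold changes of -0.69 (SE 0.23) and -0.90 (SE 0.20). H3C3 was 1.41, 1.48, 1.18 and 1.19 CPM in WT normoxia and 0.773, 0.871, 0.488 and 0.628 CPM in KO cells, without overlap. H3C2 overlapped between the groups, and its call was lost without any 1 of WT normoxia replicates 2 and 3 and KO replicates 1, 3 and 4. H3C10, H3C13 and H3C14 had log2 fold changes of -0.41 (SE 0.17), -0.88 (SE 0.32) and -0.50 (SE 0.15). None of these 3 was called, H3C14 for its size alone, and without WT normoxia replicate 1, 3 or 4 or KO replicate 3 it was called lower. H3C13 was called without KO replicate 3 or 4, and H3C10 without KO replicate 2.

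For H4, H4C9 was 13.5, 11.4, 12.6 and 12.2 CPM in KO cells, a log2 fold change of -0.95 (SE 0.07, adjusted p = 7.98e-07). H4C3 and H4C12 fell by 0.75 and 0.63 on the log2 scale (SEs 0.25 and 0.19). The call of H4C3 was lost in 10 settings, among them DESeq2 and the fits without any 1 of the 4 WT normoxia replicates or KO replicate 1 or 3. That of H4C12 was lost in 6, among them without WT normoxia replicate 3 or KO replicate 1, 3 or 4. H4C14 was 3.71, 2.92, 3.29 and 3.91 CPM in KO cells, below all 4 WT normoxia libraries, with a log2 fold change of -0.32 (SE 0.11, adjusted p = 0.0458) that was under the threshold on size. H4C8 had a log2 fold change of -0.40 (SE 0.11, adjusted p = 0.0161).

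**Figure D4:**
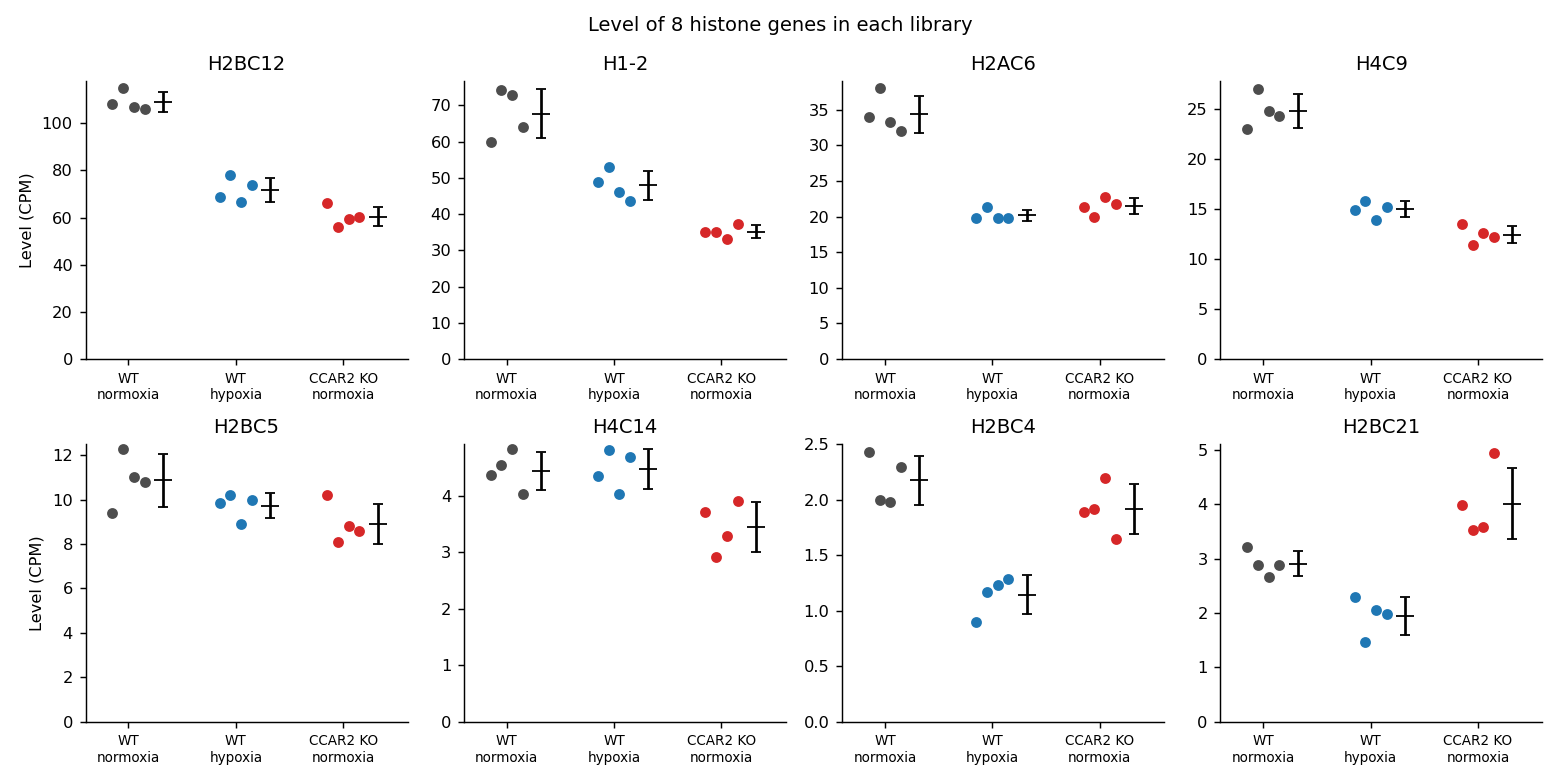
CPM of 8 histone genes in each library (points, 4 per group, in the order of replicates 1 to 4), with the group mean and SD beside them (n = 4) and axes from 0. H2BC12, H1-2, H2AC6 and H4C9 are lower in both conditions, H4C14 overlaps between WT normoxia and hypoxia, H2BC4 is called lower in hypoxia, and H2BC21 is lowest in hypoxia and highest in KO cells.

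The difference between both conditions was tested directly, by comparing KO cells with WT hypoxia over 40 members. H2BC21 and H2BC4 were higher in KO cells, and these 2 are 5% of the members tested, beside 7.08% of all 21158 genes tested. H2BC21 had a log2 fold change of 1.04 (SE 0.16, adjusted p = 4.94e-04) and H2BC4 one of 0.73 (SE 0.16, adjusted p = 0.00456), each with all 4 KO libraries above all 4 hypoxia libraries. Both calls were made under each of the settings tried. No member was called lower, beside 7.88% of all genes tested, with 0 called by DESeq2 and limma-voom as well, and 11 were lower and 2 higher by an unadjusted p under 0.05, beside 22.1% and 20.9% of all genes. The count of 0 rested on the threshold on size and on single libraries, since 7 members were lower by the adjusted p alone, 4 were called lower without hypoxia replicate 1, 3 without hypoxia replicate 3, 2 without KO replicate 1 or 3, and 1 without hypoxia replicate 2.

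The 7 members lower in KO cells by the adjusted p alone were H1-2, H2AC18, H2AC19, H2BC12, H4C9, H4C14 and H4C15. Among them, H2AC18 with H2AC19, and H4C14 with H4C15, are pairs that could not be told apart. H2AC18 and H2AC19 had a log2 fold change of -0.49 each (SE 0.08, adjusted p = 4.44e-04 and 5.11e-04). H1-2 followed with -0.45 (SE 0.07, adjusted p = 4.19e-04), and H4C14 with -0.37 (SE 0.12, adjusted p = 0.0336). H4C9 and H2BC12 had -0.27 (SE 0.07) and -0.25 (SE 0.06). H2AC6 did not differ between KO cells and hypoxia beyond its spread, with a log2 fold change of 0.09 (SE 0.06, adjusted p = 0.301), nor did H1-4, with -0.10 (SE 0.13, adjusted p = 0.618).

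Histone H2A and H2B genes often lie head to head, with a short stretch between both starts. In the annotation, 11 pairs of members on opposite strands had starts within 1000 bases of each other, between 218 and 356 bases apart, and both genes could be tested in 7 of them. Among these 7 is H2BC17 with H3C12, which is not a pair of an H2A and an H2B gene. H2BC17 is counted again as the partner of H2AC17, which overlaps H3C12 on the same strand. H2AC6 and H2BC4, 218 bases apart, fell by 0.74 and 0.89 in hypoxia on the log2 scale, and in KO cells the changes were -0.64 and -0.15. The log2 ratio of H2AC6 to H2BC4 was between 3.80 and 4.25 in WT normoxia, between 3.94 and 4.47 in hypoxia and between 3.37 and 3.72 in KO cells, so that the KO libraries lay below all others. H2AC20 and H2BC21, 322 bases apart, had log2 fold changes of -0.53 and -0.55 in hypoxia and of -0.28 and 0.50 in KO cells. H2AC20 was not called in either comparison. The log2 ratio of H2AC20 to H2BC21 was -0.78 ± 0.21 in WT normoxia, -0.78 ± 0.50 in hypoxia and -1.58 ± 0.34 in KO cells (SD, n = 4). The KO libraries, from -1.92 to -1.11, lay below WT normoxia, from -1.08 to -0.62, but overlapped with hypoxia, from -1.27 to -0.26. In the pair of H2AC12 and H2BC12 the ratio was -8.32 ± 0.52 in WT normoxia, with H2AC12 never above 0.518 CPM and H2BC12 never below 56.2 CPM in any library. These 2 genes have models of about equal length, 387 and 381 bases. The differences between partners were not tested.

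Genes were also split by the structure of their model. In hypoxia, 6 of 14 genes whose model runs on past the stem-loop were called lower, 0 of 7 whose model ends within 100 bases of it and 4 of 18 with no stem-loop in the model. By an unadjusted p under 0.05, 4 of the 7 were lower, beside 18.2% of all genes. Over all genes tested, 1.43% were called lower in hypoxia and 2.94% in KO cells. In KO cells the counts were 2 of 14, 2 of 7 and 7 of 18, with H2BC21, the gene called higher, among the first. H3C2 and H3C3, which have no model in the annotation used, fall in none of these kinds. Both were called lower in KO cells and neither was called in hypoxia. The medians of the 3 kinds were -0.33, -0.47 and -0.46 in hypoxia and -0.34, -0.34 and -0.57 in KO cells. Among the 22 genes with a mean of at least 1 CPM, 8 were called lower in hypoxia and 7 in KO cells. Among those under 1 CPM, 2 and 6 of 19 tested were called lower.

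None of the factors listed that make, process or degrade histone mRNA was called against WT normoxia. Of these 24 genes, all tested, 0 were called in hypoxia and 0 in KO cells in either direction by edgeR. Of all genes tested, 7.26% were called in hypoxia and 9.67% in KO cells. This list and the 3 that follow are short beside these shares, and nothing is read from their counts of 0. The unadjusted p was under 0.05 for 4 higher and 10 lower genes in hypoxia and for 2 higher and 10 lower genes in KO cells, beside 17.1% higher and 18.2% lower of all genes in hypoxia and 19.6% and 19.8% in KO cells, and the medians were -0.10 and -0.09. SLBP, which binds the stem-loop, was 159, 167, 167 and 146 CPM in WT normoxia, 141, 164, 149 and 145 CPM in hypoxia and 130, 124, 121 and 128 CPM in KO cells. It overlapped in hypoxia, with a log2 fold change of -0.06 (SE 0.06, adjusted p = 0.553), and lay below all WT libraries in KO cells, with -0.30 (SE 0.04, adjusted p = 2.98e-04). NPAT, the activator of histone gene transcription, was at 42.0 ± 5.12, 34.4 ± 3.50 and 39.8 ± 4.06 CPM, with log2 fold changes of -0.26 (SE 0.09, adjusted p = 0.0632) in hypoxia and -0.04 (SE 0.09) in KO cells. Between KO cells and hypoxia, TUT7, a uridylyltransferase that acts on RNA ends, was higher by 0.60 (SE 0.07), beside 15% of all genes called in that comparison.

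Of 20 histone chaperones and assembly factors, 1 was called in hypoxia and 0 in KO cells, with medians of -0.09 and -0.05. On the unadjusted p, hypoxia had 7 lower genes and 2 higher ones, beside 18.2% and 17.1% of all genes. KO cells had 5 lower genes and 1 higher one, beside 19.8% and 19.6%. ASF1A, which carries H3 and H4, was 34.3, 33.2, 33.7 and 31.0 CPM in WT normoxia and 21.6, 24.8, 22.0 and 20.3 CPM in hypoxia. It fell by 0.55 on the log2 scale (SE 0.07, adjusted p = 4.29e-04). Its paralog ASF1B was 38.5 ± 1.38 CPM in WT normoxia, 44.6 ± 1.29 CPM in hypoxia and 28.0 ± 0.872 CPM in KO cells, and was not called against WT normoxia. Between KO cells and hypoxia, ASF1A was called higher by 0.62 (SE 0.08), at 34.1 ± 2.62 CPM in KO cells, and ASF1B lower by 0.67 (SE 0.05).

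Histone variants and other histone genes outside the naming rule were compared within the histone family. Most variants are made outside S phase from polyadenylated mRNA, whereas H2AX mRNA can end in either way. None of the 12 genes of this list that could be tested was called in hypoxia or in KO cells, with medians of -0.24 and -0.16. By an unadjusted p under 0.05, 9 and 7 of them were lower and 0 and 2 higher. By that measure, 18.2% of all genes were lower and 17.1% higher in hypoxia, and 19.8% and 19.6% in KO cells. H2AX, an H2A variant that marks DNA breaks when phosphorylated, was 570, 626, 610 and 584 CPM in WT normoxia, 484, 558, 515 and 481 CPM in hypoxia and 452, 446, 438 and 437 CPM in KO cells. Both conditions lay below WT normoxia without overlap, by log2 fold changes of -0.20 (SE 0.06, adjusted p = 0.0418) and -0.39 (SE 0.04, adjusted p = 2.33e-05). Between KO cells and hypoxia, MACROH2A2 was higher by 0.79 (SE 0.24) at 1.37 ± 0.137 against 0.786 ± 0.278 CPM (SD, n = 4).

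S-phase and DNA replication genes were listed because histone mRNA is made in that phase. Of 33 genes, 0 were called in hypoxia and 0 in KO cells, and on this and the other 3 lists the counts of 0 against WT normoxia were 0 with DESeq2 and limma-voom too. In hypoxia their summed level was between 4327 and 4570 CPM against 4310 to 4503 CPM in WT normoxia, and the median log2 fold change was 0.00, with 5 higher and 3 lower by an unadjusted p under 0.05. In KO cells the sum was between 3793 and 3866 CPM, below all WT normoxia libraries, the median was -0.18, and 22 of the 33 were lower and 0 higher by an unadjusted p under 0.05, beside 19.8% and 19.6% of all genes. Between KO cells and hypoxia, PRIM1, a subunit of DNA primase, was lower by 0.53 (SE 0.08). The part of the share of cells in S phase in the histone values was not tested.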

How the data were processed

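The deposited values are whole-number expected counts per gene for 12 libraries, which the authors made, according to the methods, by cleaning reads, aligning them with Hisat2 and quantifying with StringTie, without scaling to library size. The submitters' processing notes list featureCounts instead, with no role given. The genome build, the annotation and the use of strand are not given in the sources used here. The value 4 was more frequent than 3 or 5 in each library, so that counting error cannot be read from the values.

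The whole table was fitted for each pair of groups with edgeR 4.0.16 in R 4.3.3 (TMM, filterByExpr, glmQLFit, glmQLFTest, Benjamini-Hochberg adjustment), and members were called at an adjusted p under 0.05 with a log2 fold change of 0.5 or more in size. Standard errors are the log2 fold change divided by the root of the F statistic. The test was checked on simulated data. Promoters of genes with several starts are those of the first start listed. Alternatives were DESeq2 1.42.0, limma-voom 3.58.1, other normalizations and filters, a replicate block, one fit of all libraries, values divided by 4, a lowess GC correction (span 0.3) and each library left out in turn.

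Members and lists were chosen with earlier results of these data known. Named members are those called in any comparison and the 3 of each class with the highest CPM per kb, and listed genes are named if called, along with SLBP, NPAT, H2AX and CCAR2. H2AC12, H2AC13, H2AC20 and H4C15 were added after their values were seen, as partners or near-identical copies of named members, and RMRP, found on 2 rows, was left out of its list. Replicates of a group differed by a chi-square of 10.4 to 67.0 per degree of freedom, and none were identical.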

Additional observations from a re-analysis of the deposited data

Results flagged for a closer look

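In 4 of 83 groups of 4 libraries, over single named members and summed classes, 1 library lay far from the other 3, past Dixon's 95% critical value for the gap over the group's range, where chance gives about 4.15. H1-4 was 3.12 CPM in WT normoxia replicate 2 against 2.43 to 2.47 CPM in the other 3 (gap 0.952 of the range). H2AC6 was 21.3 CPM in hypoxia replicate 2 against 19.8 CPM in the others (0.958). H2AC14 was 0.407 CPM in KO replicate 2 against 0.628 to 0.664 CPM (0.858). The summed H2B level was 140 CPM in WT normoxia replicate 2 against 129 to 130 CPM (0.893). No difference beyond these values was tested for them.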

How the results depend on the processing

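Over the 23 named members, 1067 of 1180 values under alternatives kept their direction and side of the threshold, 61 lost a call, 38 gained one and 14 changed sign, all of them values that were not called. In hypoxia the sign turned for H3C13 with the GC trend removed (-0.06), for H3C14 and H4C12 under upper-quartile normalization (0.02 and 0.04) and for H4C12 with at least 10 counts in every library (0.00). Between KO cells and hypoxia it turned for H1-4 with the GC trend removed (0.02). With each library left out, the values in hypoxia ranged from -0.08 to 0.37 for H3C13, -0.15 to 0.08 for H3C14, -0.28 to 0.09 for H4C3, -0.19 to 0.09 for H4C12 and -0.01 to 0.09 for H4C14. The members called lower in hypoxia numbered between 8 and 15 under all alternatives, and those in KO cells 8 with no filter. H2BC21 was not called higher in KO cells with no filter, with the replicate block or with the GC trend removed (0 members each). Members lower in KO cells than in hypoxia numbered 7 by the adjusted p alone, 2 under upper-quartile normalization, 1 with at least 10 counts in every library and 2 with all 12 libraries in one fit.

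With each library left out in turn, members called lower ranged from 8 to 14 in hypoxia, from 8 to 13 in KO cells and from 0 to 4 between KO cells and hypoxia, and members called higher from 0 to 1 in KO cells. The median log2 fold change of the members ranged from -0.49 to -0.39 in hypoxia, and from -0.23 to -0.09 between KO cells and hypoxia.

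Without the most abundant member, the log2 ratios of the class sums in hypoxia moved to -0.51 for H2A, -0.33 for H2B, -0.23 for H3 and -0.13 for H4. In KO cells they moved to -0.71 for H1, -0.88 for H2A, -0.18 for H2B and -0.41 for H4. Between KO cells and hypoxia they moved to -0.13 for H1, -0.36 for H2A and -0.42 for H3, and H2B turned to 0.15. With the GC trend removed, H2B was at -0.67 in hypoxia and -0.06 between KO cells and hypoxia. The fit with the replicate block gave 9 members lower in hypoxia and 12 in KO cells, and a median of -0.23 between KO cells and hypoxia. The labels do not say whether equal replicate numbers mark pairs. The correlation of same-numbered libraries after removal of group means was between -0.0248 and 0.0651, and values this small do not exclude pairs. In each comparison replicate 2 correlated best with replicate 2 of the other group (0.0651, 0.0216 and 0.0545). Every other replicate correlated best with a library of a different number. The causes of these shifts were not tested beyond their construction. Low counts limit the members under 1 CPM, and poly-A selection, shared sequence and the unnamed annotation limit all of them.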
